A study of Mus musculus with 15 samples.

Results

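The genes described here are 50 regulators of the cell cycle: cyclins, cyclin-dependent kinases (CDKs), CDK inhibitors, pocket proteins, E2F transcription factors, DNA replication licensing factors, and kinases and checkpoint proteins of mitosis. They were chosen by name, but with earlier results of these data known. A gene counted as measured when a transcript cluster (a set of probes for 1 stretch of transcribed genome) carried its symbol alone, and where a gene had several such clusters the one with the highest mean over all arrays stood for it. This gave 47 of the 50 genes, out of 30098 genes with a cluster of their own. *Ccnb1* had no cluster with its symbol, and the clusters of *Ccnd1* and *Mcm7* carried several symbols, so these 3 genes were left out.

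RNA of whole mouse gonads was measured at embryonic day 15.5 (E15.5) on Affymetrix Clariom D arrays, with 3 groups of 5 arrays. The dKO XY gonads came from XY embryos that lacked both copies of *Amh* and of *Inhbb* (*Amh*-/-; *Inhbb*-/-), control XX gonads were ovaries and control XY gonads were testes, both from embryos with the genotype *Amh*+/+; *Inhbb*+/+. By the labels the parents were *Amh*+/-; *Inhbb*+/-, the line was on the C57BL/6 background, and the gonads were freed of the mesonephros, the adjoining embryonic kidney. Both deletions were present in every cell of the embryo from conception, so the samples do not show in which gonadal cell a change began. *Amh* encodes anti-Müllerian hormone of the Sertoli cells, the supporting cells of the testis, and *Inhbb* encodes the subunit of activin B. The values are the deposited log2 signals, called units below. *Amh* averaged 4.51 ± 0.15 units in dKO XY, 4.31 ± 0.14 in control XX and 11.47 ± 0.49 in control XY (SD, n = 5 each). *Inhbb* averaged 9.27 ± 0.10 in dKO XY, 9.18 ± 0.10 in control XX and 10.53 ± 0.12 in control XY. This cluster thus kept a signal above the negative controls in dKO XY, close to that of the wild-type ovary, and does not by itself show the loss of the gene.

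A cell divides when cyclins switch on their partner CDKs. D-type cyclins with CDK4 or CDK6, and then E-type cyclins with CDK2, phosphorylate the pocket proteins (RB1 and its relatives), which release E2F factors to transcribe the genes of S phase, the phase of DNA replication. Cyclins A and B with CDK1 then drive mitosis, and the CIP/KIP and INK4 inhibitors hold the kinases back. In the mouse fetal gonad the sexes part in this cycle: ovarian germ cells replicate their DNA a last time and enter meiosis, germ cells of the testis stop dividing, Sertoli cells go on dividing, and the first granulosa cells of the ovary, its supporting cells, are known to carry CDK inhibitors and to divide little.

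The array measures a whole gonad, so fewer cells of a type and less RNA per cell cannot be told apart in any value below. Array medians lay between 5.17 and 5.33 units. The median of 5222 negative control probe sets was 6.24 units, and 5 of the 47 genes (*Ccna1*, *Cdkn2b*, *Cdkn2c*, *Cdkn2d* and *E2f2*) had a mean below it over all arrays. The deposited scale reaches 19.93, beyond the 16 that a scanner of this kind can give as a plain log2 value. A difference of 1 unit is therefore 2-fold only by convention, although none of the 47 genes passed 16 on any array. Marker genes of other cell types moved between the groups as well. The 14 meiotic prophase genes had array means of 9.84 to 11.11 in dKO XY, 12.00 to 12.56 in control XX and 7.13 to 7.54 in control XY, and 14 of the 14 passed as higher in dKO XY than control XY. The 9 granulosa cell genes had array means of 8.04 to 8.47 in dKO XY, 9.25 to 9.42 in control XX and 6.49 to 6.76 in control XY, with 7 of 9 higher in dKO XY than control XY. *Foxl2*, which defines granulosa cells, averaged 5.21 in dKO XY and 7.16 in control XX, against 4.13 in control XY, so in both XY groups it was below the negative control median.

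Promoter windows were read from RefSeq (GRCm38.p6) for 39 of the 50 genes, as 250 bases before and 50 bases after each annotated start. Genes of the G2 phase and mitosis are known for the CHR element, TTTGAA or TTCGAA, which often stands near a CCAAT box, and S phase genes for E2F sites. The windows below are shown because these 4 mitotic genes differed between the control ovary and testis in opposite directions: *Aurka*, *Cdc20* and *Plk1* were lower in control XX, and *Bub1* was higher. Capitals mark CHR letters and CCAAT boxes, and a CCAAT box on the other strand reads ATTGG. The windows are chr2:172370521-172370820 (minus strand) for *Aurka*, chr4:118437294-118437593 (minus strand) for *Cdc20*, chr7:122159185-122159484 (plus strand) for *Plk1* and chr2:127831810-127832109 (minus strand) for *Bub1*, each written 5′ to 3′ along its gene.
Aurka: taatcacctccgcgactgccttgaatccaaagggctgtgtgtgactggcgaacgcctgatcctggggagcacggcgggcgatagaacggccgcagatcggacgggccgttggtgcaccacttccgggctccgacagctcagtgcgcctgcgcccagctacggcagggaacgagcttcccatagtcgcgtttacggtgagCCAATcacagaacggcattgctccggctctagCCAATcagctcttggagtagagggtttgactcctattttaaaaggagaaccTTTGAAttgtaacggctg
Cdc20: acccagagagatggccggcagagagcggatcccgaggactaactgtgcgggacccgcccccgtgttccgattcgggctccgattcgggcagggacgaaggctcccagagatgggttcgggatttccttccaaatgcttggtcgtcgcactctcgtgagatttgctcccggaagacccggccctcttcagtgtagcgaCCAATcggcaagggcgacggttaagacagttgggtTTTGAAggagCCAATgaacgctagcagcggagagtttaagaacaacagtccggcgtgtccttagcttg
Plk1: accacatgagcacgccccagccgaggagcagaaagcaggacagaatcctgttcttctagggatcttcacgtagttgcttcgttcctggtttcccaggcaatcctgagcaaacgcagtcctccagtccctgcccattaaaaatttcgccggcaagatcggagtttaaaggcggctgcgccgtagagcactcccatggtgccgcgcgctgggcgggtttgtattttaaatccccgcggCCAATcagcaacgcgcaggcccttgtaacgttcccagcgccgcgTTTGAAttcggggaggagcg
Bub1: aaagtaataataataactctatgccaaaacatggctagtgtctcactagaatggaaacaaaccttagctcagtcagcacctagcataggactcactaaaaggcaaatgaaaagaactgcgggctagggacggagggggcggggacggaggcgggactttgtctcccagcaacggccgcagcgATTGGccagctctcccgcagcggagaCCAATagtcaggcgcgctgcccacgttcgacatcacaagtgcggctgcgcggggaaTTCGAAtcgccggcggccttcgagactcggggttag
Each of the 4 windows held 1 CHR match. *Aurka*, *Cdc20* and *Bub1* held 2 CCAAT boxes and *Plk1* held 1. In *Aurka*, *Plk1* and *Bub1* the CHR letters lay downstream of the CCAAT boxes, whereas in *Cdc20* they lay between them. None of the 4 held the E2F letters searched (TTTCCCGC, TTTGGCGC, TTTCGCGC or TTTGCCGC). All motifs were searched on both strands and did not overlap in these windows. CHR letters stood in 34.8% of the 46 windows of the cell cycle genes, against 19.2% of all 32851 windows. CCAAT stood in 63% of them, against 37.4% of all windows, and E2F letters in 13 of 46 (28.3%), against 744 of all (2.26%). The genes with E2F letters included *Mcm3*, *Mcm5*, *Mcm6*, *Cdc6*, *Cdt1*, *Cdk1*, *Cdk2* and *E2f7*. A match is a description of the letters and not evidence of a bound site.

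Between dKO XY and control XY gonads, 4 of the 47 genes were higher: the inhibitors *Cdkn1a* and *Cdkn1c*, the kinase gene *Cdk6* and the cyclin gene *Ccne2*, by 1.13 to 1.69 units. None was called lower. To be called, a gene needed both a difference of at least 1 unit and a limma p that stayed below 0.05 after Benjamini-Hochberg adjustment across the 65956 clusters. Over all clusters 0.567% were called higher and 1.62% lower, and among the 23646 clusters brighter than the negative control median the shares were 1.46% and 3.3%. At the adjusted p alone 9 of the 47 genes were higher (19.1%) and 4 lower (8.51%), against 4.41% and 6.02% of all clusters. In a fit on the 23646 brighter clusters alone, 2890 were higher and 3206 lower, larger shares than among all clusters. Beside the 47 genes, this share higher was smaller and this share lower was larger. At an unadjusted p below 0.05, 11 were higher and 7 lower, and the unmoderated linear-model test after the study's methods also called 0 lower. The median difference of the 47 genes was 0.08 units, beside 0.007 for all clusters.

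The comparison of the control gonads shows how ovary and testis differ in these genes. In control XX minus control XY, 8 genes were called higher and 7 lower, where 2.54% of all clusters were higher and 3.22% lower (5.7% and 6.7% of the brighter clusters). The higher genes were the CIP/KIP inhibitors *Cdkn1a*, *Cdkn1b* and *Cdkn1c*, the cyclins *Ccne1*, *Ccne2* and *Ccnb3*, *Cdk6* and *Bub1*. The lower genes were *E2f6*, *E2f7*, *Ccna2*, *Aurka*, *Aurkb*, *Plk1* and *Cdc20*. At the adjusted p alone 14 were higher (29.8%) and 12 lower (25.5%), against 10.8% and 13.4% of all clusters. In a fit on the 23646 brighter clusters alone, 5204 were higher and 6266 lower, larger shares than among all clusters. The 47 genes exceeded the brighter clusters on the higher side only, and their share lower was slightly smaller. The median over the 47 genes was -0.08, beside -0.013 for all clusters, so the changes ran in both directions.

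In dKO XY minus control XX, *Plk1* was the 1 gene called higher, and *Ccne2*, *Cdkn1b*, *Ccnb3* and *Cdkn1c* were called lower. Of all clusters 1.22% were higher and 1.28% lower, and of the brighter clusters 3.09% and 2.9%. At the adjusted p alone 11 genes were higher (23.4%) and 8 lower (17.0%), against 7.55% and 7.51% of all clusters. In a fit on the 23646 brighter clusters alone, 4363 were higher and 3985 lower, larger shares than among all clusters. The share lower of the 47 genes was close to that of the brighter clusters, and their share higher was larger. The median over the 47 genes was 0.06, beside 0.016 for all clusters. The 3 comparisons share arrays in pairs, so their values are given side by side and are not independent of each other.

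**Figure D1:**
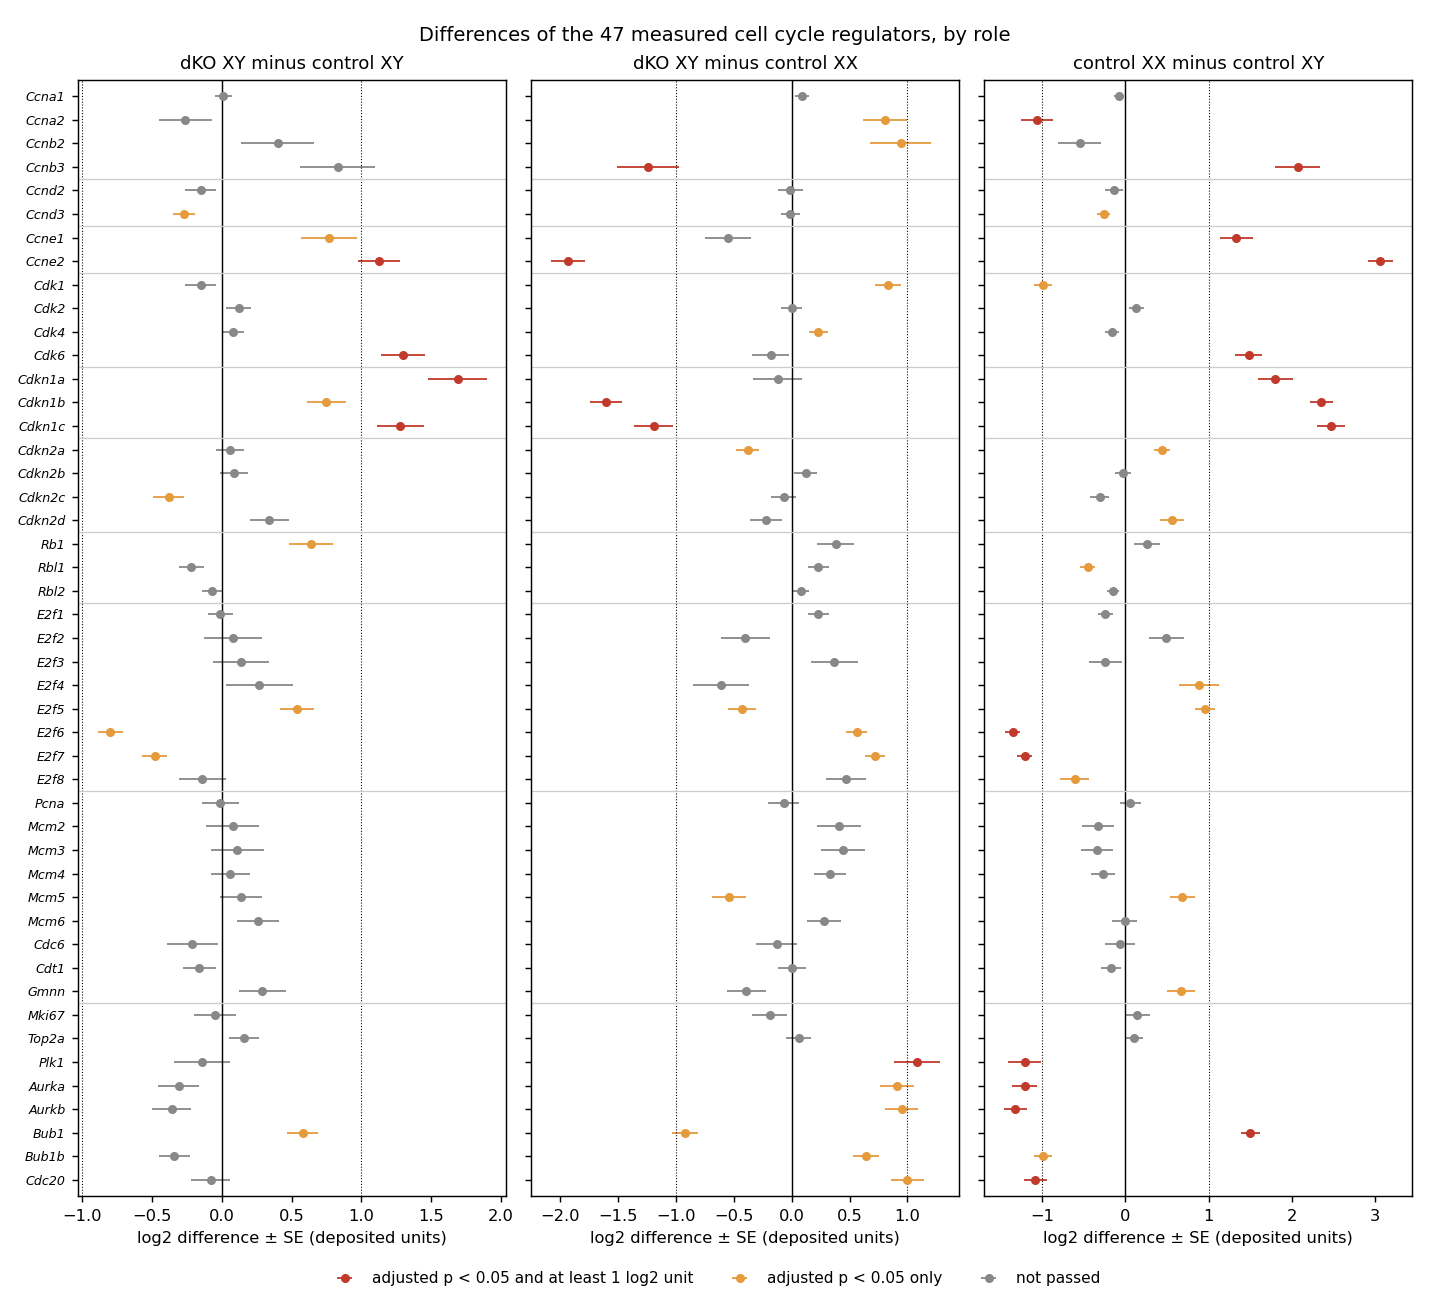
Log2 difference (horizontal axis, deposited units) ± SE of each of the 47 measured genes, in rows grouped by role, for dKO XY minus control XY (left), dKO XY minus control XX (middle) and control XX minus control XY (right). Red points passed the adjusted p and a difference of 1 unit (dotted lines), orange points the adjusted p alone, and grey points neither. In the left panel the red points are *Cdk6*, *Cdkn1a*, *Cdkn1c* and *Ccne2*, all to the right of 0.

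The CIP/KIP inhibitors were higher in dKO XY than control XY, with 3 of 3 at the adjusted p and 2 of 3 also at 1 unit. Of all clusters 4.41% were higher at the adjusted p and 0.567% also at 1 unit, the latter 1.46% of the brighter clusters. CIP/KIP proteins bind and block cyclin-CDK complexes. *Cdkn1a* encodes p21, a target of p53. It read 8.73, 8.60, 9.02, 8.34 and 7.96 on the dKO XY arrays, 8.67, 8.59, 8.68, 8.24 and 9.06 on the control XX arrays, and 6.56, 7.54, 6.86, 6.79 and 6.47 on the control XY arrays. The dKO XY and control XX arrays overlapped, and each array of both groups lay above every control XY array. The difference was 1.69 ± 0.21 units in dKO XY minus control XY (SE; adjusted p = 9.1e-05) and 1.80 ± 0.21 in control XX minus control XY (adjusted p = 6.7e-06). In dKO XY minus control XX it was -0.12, with a 95% interval of -0.57 to 0.33.

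*Cdkn1b* encodes p27, known for holding cells in G1, the phase before replication. Its 5 values were 10.27, 9.59, 10.06, 9.97 and 9.67 in dKO XY, 11.35, 11.71, 11.18, 11.64 and 11.67 in control XX, and 9.08, 9.51, 8.99, 9.02 and 9.19 in control XY. The 3 groups did not overlap, and dKO XY lay between the controls but nearer to control XY. It was 0.75 ± 0.14 units higher in dKO XY than control XY (adjusted p = 0.0028), short of the 1 unit of the call. In control XX it was 2.35 ± 0.14 higher than control XY (adjusted p = 3.4e-09), and dKO XY minus control XX was -1.60 ± 0.14 (adjusted p = 9.5e-07).

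*Cdkn1c* encodes p57, an imprinted gene expressed mainly from the maternal copy. The dKO XY arrays gave 11.31, 10.99, 10.87, 10.56 and 11.19, the control XX arrays 11.81, 12.57, 12.52, 11.98 and 11.97, and the control XY arrays 9.40, 9.75, 9.74, 10.09 and 9.53. These groups were also separate, with dKO XY in the middle. The differences were 1.28 ± 0.17 in dKO XY minus control XY (adjusted p = 0.00018), -1.19 ± 0.17 in dKO XY minus control XX (adjusted p = 0.00014) and 2.47 ± 0.17 in control XX minus control XY (adjusted p = 2e-08). The array means of the granulosa cell genes and of the meiotic prophase genes, both given above, ranked the groups as *Cdkn1b* and *Cdkn1c* did. Within the granulosa list only *Nr0b1* was higher in dKO XY (11.21) than control XX (9.68). Other marker lists shared this ranking, such as surface epithelium, with group means of 8.15 for control XY, 9.13 for dKO XY and 9.33 for control XX. What part any of these lists has in the inhibitor differences was not tested.

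The INK4 inhibitors, which bind CDK4 and CDK6, gave little signal. *Cdkn2b*, *Cdkn2c* and *Cdkn2d* averaged below the negative control median in each of the 3 groups, and no INK4 gene reached 1 unit in any comparison. *Cdkn2c*, encoding p18, read 5.74, 5.53, 5.99, 5.79 and 5.87 in dKO XY, 5.60, 5.67, 6.09, 6.03 and 5.87 in control XX, and 6.32, 5.93, 6.05, 6.21 and 6.31 in control XY. The groups overlapped, and dKO XY minus control XY was -0.38 ± 0.11 (adjusted p = 0.044), a call at the adjusted p that 12 of 23 alternative settings did not keep, with adjusted p up to 0.11. *Cdkn2a*, which encodes p16 and p19ARF, averaged 6.75 ± 0.11 in dKO XY, 7.13 ± 0.19 in control XX and 6.69 ± 0.17 in control XY, and was lower in dKO XY than control XX (adjusted p = 0.015). *Cdkn2d* passed at the adjusted p only between the controls, 0.56 units higher in control XX (adjusted p = 0.0073).

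The E-type cyclins open S phase with CDK2, and both *Ccne1* and *Ccne2* rose in dKO XY over control XY. *Ccne2* had the largest difference of the 47 genes between the controls. It read 10.49, 9.65, 10.10, 9.73 and 9.70 in dKO XY, 11.52, 11.95, 11.90, 11.98 and 11.97 in control XX, and 8.70, 9.02, 8.76, 8.95 and 8.60 in control XY, with no overlap among the groups. The difference was 1.13 ± 0.15 in dKO XY minus control XY (adjusted p = 0.00014), -1.93 ± 0.15 in dKO XY minus control XX (adjusted p = 1.9e-07) and 3.06 ± 0.15 in control XX minus control XY (adjusted p = 3e-10). Without dKO XY replicate 1, its highest array, the first of these was 0.99 units (adjusted p = 0.00016) and no longer reached the call.

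For *Ccne1* the arrays gave 8.08, 7.39, 8.13, 7.94 and 7.91 in dKO XY, 8.39, 7.85, 8.22, 9.23 and 8.52 in control XX, and 7.08, 7.31, 7.14, 7.10 and 6.95 in control XY. All dKO XY arrays lay above control XY, replicate 2 by the smallest margin, and they overlapped control XX. The increase over control XY was 0.77 ± 0.20 in dKO XY (adjusted p = 0.018) and 1.33 ± 0.20 in control XX (adjusted p = 7.7e-05). Leaving out dKO XY replicate 1 or 3 gave 0.73 and 0.71 units with adjusted p of 0.051 and 0.054. dKO XY minus control XX was -0.55, with a 95% interval of -0.97 to -0.13 (adjusted p = 0.076).

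Among the 4 CDK genes measured here (*Cdk1*, *Cdk2*, *Cdk4* and *Cdk6*) only *Cdk6* was called. CDK6 partners the D-type cyclins. It read 9.81, 9.57, 9.40, 9.53 and 9.48 in dKO XY, 9.48, 9.83, 9.57, 10.12 and 9.68 in control XX, and 7.95, 8.69, 8.37, 8.46 and 7.82 in control XY. As with *Cdkn1a*, dKO XY and control XX overlapped and both stood clear of control XY. The differences from control XY were 1.30 ± 0.16 for dKO XY (adjusted p = 6e-05) and 1.48 ± 0.16 for control XX (adjusted p = 2.1e-06), and dKO XY minus control XX was -0.18 (95% interval -0.51 to 0.15). *Cdk4*, the other partner of the D-type cyclins, averaged 13.26 ± 0.12 in dKO XY, 13.03 ± 0.12 in control XX and 13.18 ± 0.05 in control XY. Its 95% interval in dKO XY minus control XY was -0.09 to 0.24, and that of *Cdk2* was -0.08 to 0.32.

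Of the D-type cyclins, which answer to growth signals, *Ccnd3* was slightly lower in dKO XY. It read 7.95, 7.97, 7.67, 7.76 and 7.86 in dKO XY, 7.73, 7.74, 7.97, 7.94 and 7.89 in control XX, and 8.05, 7.97, 8.18, 8.21 and 8.16 in control XY. The dKO XY minus control XY difference was -0.27 ± 0.08 (adjusted p = 0.04), with overlap at 7.97, and 12 of 24 alternative settings lost it, with adjusted p up to 0.12. *Ccnd2* averaged 13.42 ± 0.11 in dKO XY, 13.43 ± 0.14 in control XX and 13.57 ± 0.25 in control XY, and passed in no comparison.

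**Figure D2:**
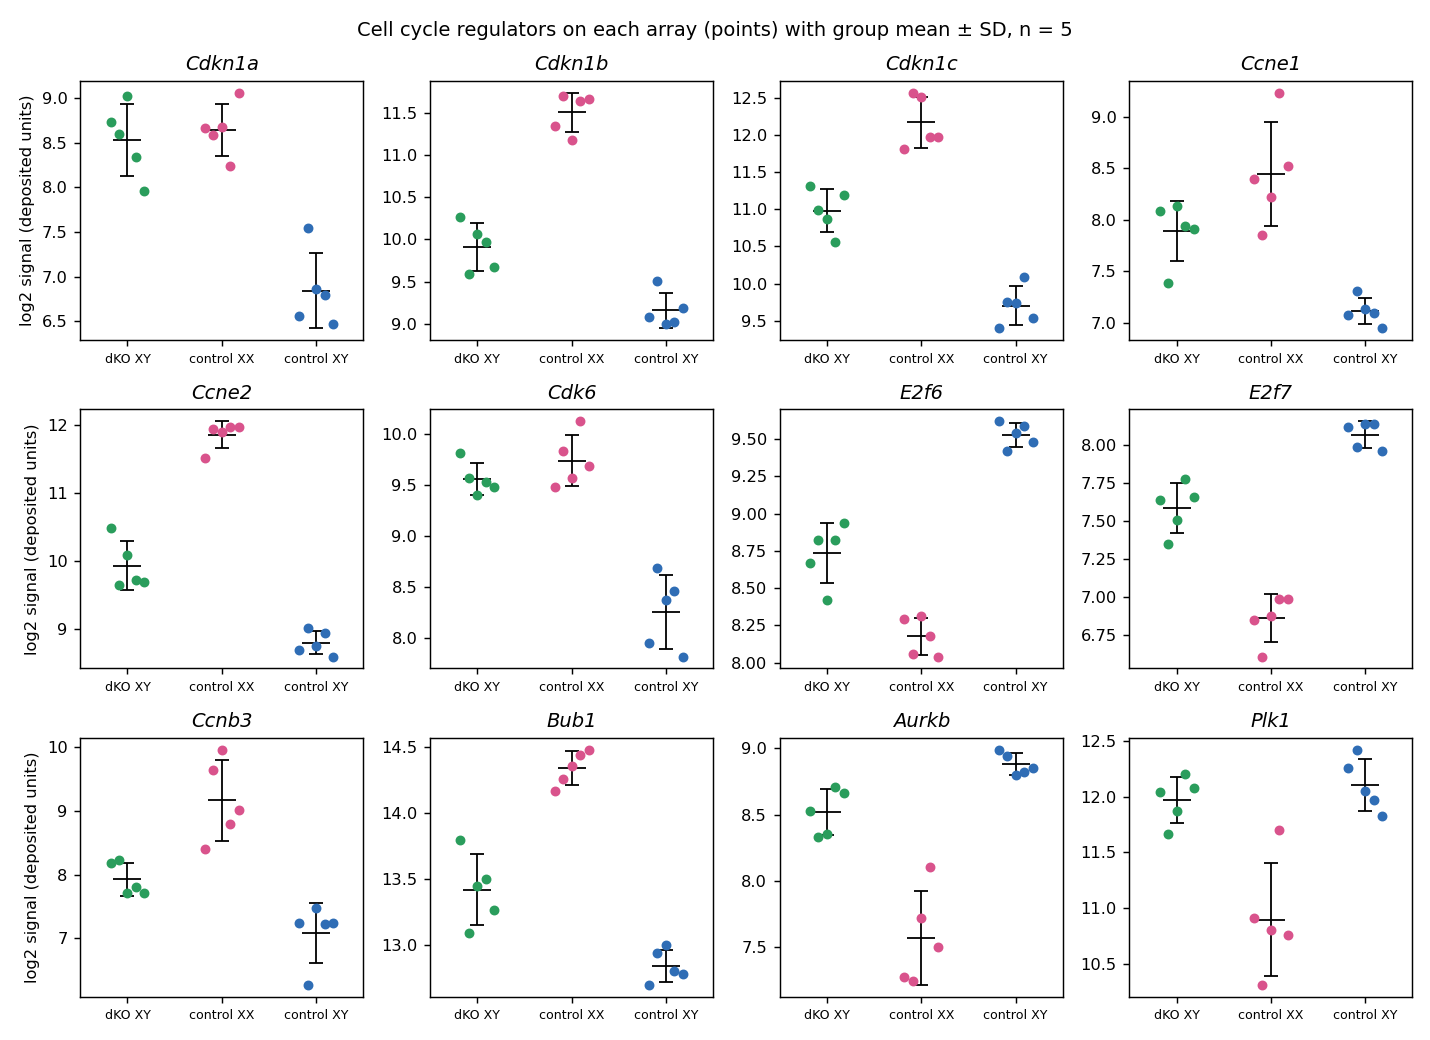
Log2 signal (vertical axis, deposited units, a separate scale in each panel) of 12 cell cycle genes on each of the 15 arrays, with dKO XY in green, control XX in pink and control XY in blue. Points are arrays, and the black bars are group means ± SD (n = 5). In *Cdkn1a* and *Cdk6* the dKO XY points sit with control XX, in *Cdkn1b*, *Cdkn1c*, *Ccne2*, *E2f7* and *Bub1* between the controls, and in *Plk1* with control XY.

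None of the 3 pocket protein and 8 E2F genes was called in dKO XY minus control XY, and 2 were higher and 2 lower at the adjusted p alone. Of all clusters 4.41% were higher and 6.02% lower by that rule. Of the 23646 brighter clusters fitted alone 2890 were higher and 3206 lower, which are larger shares. *Rb1*, the retinoblastoma gene, read 11.59, 10.96, 11.57, 11.63 and 11.43 in dKO XY, 11.24, 10.61, 11.09, 11.23 and 11.12 in control XX, and 10.40, 11.16, 10.83, 10.77 and 10.82 in control XY. dKO XY replicate 2 lay below the highest control XY array, and the difference was 0.64 ± 0.16 (adjusted p = 0.014). *Rb1* has 3 clusters, of which the brightest was used. The other 2 averaged 4.96 and 7.53 in dKO XY, 5.09 and 7.44 in control XX, and 4.91 and 7.70 in control XY, and the mean of the 3 clusters differed by 0.17 units between dKO XY and control XY (adjusted p = 0.37). *Rbl1* (p107) was 0.45 units lower in control XX than control XY (-0.45 ± 0.09; adjusted p = 0.0019), and *Rbl2* (p130) passed in no comparison.

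*E2f6* and *E2f7* encode repressors of E2F targets, and both were lower in dKO XY than control XY at the adjusted p. *E2f6* read 8.67, 8.82, 8.42, 8.82 and 8.94 in dKO XY, 8.29, 8.06, 8.31, 8.18 and 8.04 in control XX, and 9.62, 9.42, 9.54, 9.59 and 9.48 in control XY. The groups were separate, and the differences were -0.80 ± 0.09 in dKO XY minus control XY (adjusted p = 4.5e-05), 0.56 ± 0.09 in dKO XY minus control XX (adjusted p = 0.00047) and -1.35 ± 0.09 in control XX minus control XY (adjusted p = 1.4e-08). E2F6 acts with Polycomb proteins and is known in the mouse for silencing germ cell and meiotic genes in other tissues. The meiotic prophase genes were at their lowest array means in control XY, where *E2f6* was highest, and a link between them was not tested.

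*E2f7* read 7.64, 7.35, 7.51, 7.78 and 7.66 in dKO XY, 6.85, 6.61, 6.88, 6.99 and 6.99 in control XX, and 8.12, 7.99, 8.14, 8.14 and 7.96 in control XY, again with no overlap. It was -0.48 ± 0.09 in dKO XY minus control XY (adjusted p = 0.0028), 0.72 ± 0.09 in dKO XY minus control XX (adjusted p = 3.6e-05) and -1.21 ± 0.09 in control XX minus control XY (adjusted p = 4.9e-08). *E2f8*, its close relative, averaged 9.09 ± 0.08 in dKO XY, 8.62 ± 0.48 in control XX and 9.23 ± 0.11 in control XY, and passed at the adjusted p between the controls only (-0.61 ± 0.17; adjusted p = 0.012).

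*E2f5*, which pairs mainly with p130 and p107, ran the other way. It read 9.49, 8.75, 9.04, 9.16 and 9.05 in dKO XY, 9.49, 9.58, 9.45, 9.51 and 9.58 in control XX, and 8.38, 8.94, 8.53, 8.48 and 8.48 in control XY. dKO XY overlapped both controls by 1 array on each side, and the difference from control XY was 0.54 ± 0.12 (adjusted p = 0.0091). The difference from control XX was -0.43 ± 0.12 (adjusted p = 0.026), which 6 of 24 alternative settings did not keep. *E2f4*, the other repressive partner of these pocket proteins, passed only in control XX minus control XY (0.88 ± 0.24; adjusted p = 0.012), where control XX replicate 4 read 10.66 and the other control XX arrays 9.03 to 9.49. The activators *E2f1*, *E2f2* and *E2f3* passed in none of the 3 comparisons, with dKO XY minus control XY intervals of -0.20 to 0.19, -0.37 to 0.54 and -0.28 to 0.55. The *E2f3* values come from a cluster without a place on the genome, and its placed cluster averaged 7.81 in dKO XY, 7.40 in control XX and 7.62 in control XY.

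No replication licensing factor passed between dKO XY and control XY. Licensing loads the MCM helicase onto DNA through CDC6 and CDT1, geminin (*Gmnn*) blocks it, and PCNA clamps the polymerase to DNA. In limma 0 of the 9 measured genes passed in either direction, also at an unadjusted p below 0.05 and in the methods' unmoderated test. At the adjusted p 4.41% of all clusters were higher and 6.02% lower, and at such shares few or none of 9 genes would pass. The 9 genes all averaged above the negative control median, however. Of the 23646 such clusters fitted alone, 2890 were higher and 3206 lower, larger shares at which more genes would pass. Their differences ran from -0.21 for *Cdc6* to 0.29 for *Gmnn*. *Pcna* averaged 12.17 ± 0.23 in dKO XY, 12.24 ± 0.25 in control XX and 12.18 ± 0.17 in control XY, and its 95% interval in dKO XY minus control XY was -0.28 to 0.27. Between the controls *Mcm5* and *Gmnn* were higher in control XX, by 0.68 ± 0.15 (adjusted p = 0.0024) and 0.67 ± 0.17 units (adjusted p = 0.0074), and no licensing gene was lower at the adjusted p. *Mcm5* was also the 1 licensing gene that passed in dKO XY minus control XX, at -0.54 ± 0.15 (adjusted p = 0.02).

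The general marks of dividing cells passed in none of the 3 comparisons. *Mki67*, which encodes the Ki-67 antigen, read 15.18, 14.63, 15.21, 14.90 and 15.03 in dKO XY, 14.94, 14.86, 15.47, 15.65 and 14.97 in control XX, and 15.03, 14.98, 15, 15.13 and 15.04 in control XY. The groups overlapped, and the 95% intervals were -0.36 to 0.26 in dKO XY minus control XY, -0.50 to 0.12 in dKO XY minus control XX and -0.17 to 0.45 in control XX minus control XY. *Top2a*, the topoisomerase that untangles chromosomes, averaged 13.84 ± 0.24 in dKO XY, 13.77 ± 0.09 in control XX and 13.67 ± 0.17 in control XY. Its intervals lay within -0.17 to 0.40 units in the 3 comparisons.

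The mitotic kinases, checkpoint genes and proliferation marks numbered 8. At the adjusted p, 5 were lower and 1 higher in control XX than control XY, beside 13.4% and 10.8% of all clusters. In dKO XY minus control XY 1 was higher and 0 lower in limma, beside 4.41% and 6.02% of all clusters. There 2 were lower at an unadjusted p below 0.05, and 0 at the adjusted p of the unmoderated test. *Plk1*, a kinase of mitotic entry and spindle assembly, read 12.04, 11.66, 11.87, 12.20 and 12.08 in dKO XY, 10.91, 10.31, 10.80, 11.70 and 10.76 in control XX, and 12.26, 12.42, 12.05, 11.97 and 11.83 in control XY. Control XX replicate 4 reached into the dKO XY range, while the other 4 control XX arrays lay below all XY arrays. The differences were -0.14 in dKO XY minus control XY (95% interval -0.55 to 0.28), 1.08 ± 0.20 in dKO XY minus control XX (adjusted p = 0.00099) and -1.21 ± 0.20 in control XX minus control XY (adjusted p = 0.00017). Without control XX replicate 2, the second of these was 0.93 units (adjusted p = 0.0026), and then 0 of the 47 genes were called higher in dKO XY than control XX. Without control XX replicate 4 the count was 5, without dKO XY replicate 2 it was 4, and without dKO XY replicate 3 or control XX replicate 1 it was 2.

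*Aurka*, the Aurora kinase of the spindle poles, read 10.08, 9.76, 10.14, 10.34 and 10.32 in dKO XY, 9.24, 8.68, 9.37, 9.69 and 9.13 in control XX, and 10.36, 10.46, 10.46, 10.48 and 10.42 in control XY. The dKO XY arrays lay just below control XY and above control XX, without overlap. The difference was -0.31 in dKO XY minus control XY (95% interval -0.62 to 0.01, adjusted p = 0.24), 0.91 ± 0.15 in dKO XY minus control XX (adjusted p = 0.00041) and -1.21 ± 0.15 in control XX minus control XY (adjusted p = 1e-05).

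*Aurkb*, the Aurora kinase of centromeres and cytokinesis, followed the same order of groups. Its values were 8.53, 8.33, 8.35, 8.71 and 8.66 in dKO XY, 7.27, 7.24, 7.72, 8.10 and 7.50 in control XX, and 8.99, 8.94, 8.80, 8.82 and 8.85 in control XY, with no overlap. It differed by -0.36 in dKO XY minus control XY (95% interval -0.66 to -0.07, adjusted p = 0.12), by 0.95 ± 0.14 in dKO XY minus control XX (adjusted p = 0.00013) and by -1.32 ± 0.14 in control XX minus control XY (adjusted p = 2e-06).

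*Cdc20* encodes the activator of the anaphase-promoting complex. It read 9.31, 8.84, 9.12, 9.48 and 9.19 in dKO XY, 8.17, 7.96, 7.96, 8.68 and 8.20 in control XX, and 9.21, 9.56, 9.31, 9.17 and 9.11 in control XY. The XY groups overlapped each other and lay above control XX. Its difference was -0.08 in dKO XY minus control XY (95% interval -0.39 to 0.22) and -1.08 ± 0.14 in control XX minus control XY (adjusted p = 2.3e-05). The dKO XY minus control XX difference was 1.00 ± 0.14 (adjusted p = 0.00012) and fell just short of the call before rounding.

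*Bub1* and *Bub1b* encode related proteins of the spindle checkpoint and differed in opposite directions between the controls. *Bub1* read 13.80, 13.09, 13.45, 13.50 and 13.27 in dKO XY, 14.17, 14.26, 14.36, 14.44 and 14.48 in control XX, and 12.70, 12.94, 13.00, 12.81 and 12.78 in control XY, and the groups were separate. The differences were 0.58 ± 0.11 in dKO XY minus control XY (adjusted p = 0.0034), -0.92 ± 0.11 in dKO XY minus control XX (adjusted p = 2.5e-05) and 1.5 ± 0.11 in control XX minus control XY (adjusted p = 4.3e-08). *Bub1b* averaged 11.12 ± 0.22 in dKO XY, 10.48 ± 0.14 in control XX and 11.46 ± 0.18 in control XY. It was -0.99 ± 0.11 in control XX minus control XY (adjusted p = 4.2e-06) and -0.34 in dKO XY minus control XY (95% interval -0.58 to -0.11, adjusted p = 0.061).

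Among the A- and B-type cyclins, *Ccna2* was called lower and *Ccnb3* higher in control XX against control XY. *Ccna2*, the somatic cyclin A, read 12.51, 12.10, 12.47, 12.43 and 12.49 in dKO XY, 11.66, 11.02, 11.83, 12.23 and 11.21 in control XX, and 12.76, 13.00, 12.48, 12.58 and 12.46 in control XY. Control XX lay below every control XY array and overlapped dKO XY at replicate 4. The control XX minus control XY difference was -1.06 ± 0.19 (adjusted p = 0.00035), and it was -0.92, -0.97 and -0.98 without control XX replicate 2, control XX replicate 5 or control XY replicate 2. dKO XY minus control XX was 0.81 ± 0.19 (adjusted p = 0.0062), and dKO XY minus control XY was -0.26 (95% interval -0.65 to 0.14). *Cdk1*, the kinase of these cyclins, averaged 10.63 ± 0.18 in dKO XY, 9.79 ± 0.21 in control XX and 10.78 ± 0.16 in control XY, 0.99 units lower in control XX than control XY (-0.99 ± 0.11; adjusted p = 5.1e-06). *Ccnb2* averaged 11.53 ± 0.46 in dKO XY, 10.59 ± 0.61 in control XX and 11.14 ± 0.20 in control XY, and was higher in dKO XY than control XX (0.94 ± 0.26; adjusted p = 0.018).

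*Ccnb3* is an X-linked cyclin needed in mouse oocytes for the exit from the first meiotic division. It read 8.18, 8.23, 7.71, 7.80 and 7.71 in dKO XY, 8.40, 9.65, 9.96, 8.80 and 9.02 in control XX, and 7.24, 6.27, 7.48, 7.22 and 7.25 in control XY. The 3 groups did not overlap, with dKO XY in the middle. It was -1.24 ± 0.27 in dKO XY minus control XX (adjusted p = 0.004) and 2.07 ± 0.27 in control XX minus control XY (adjusted p = 1.8e-05). The 0.83 ± 0.27 of dKO XY minus control XY did not pass (adjusted p = 0.061). *Ccna1*, the germ cell cyclin A, averaged 4.71 ± 0.06 in dKO XY, 4.62 ± 0.07 in control XX and 4.70 ± 0.05 in control XY, below the negative control median in all 3 groups.

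To compare whole arrays, 3 sets of these genes were averaged on each array, as the mean deviation from the mean of all arrays. The 3 CIP/KIP inhibitors gave -0.11 to 0.39 units in dKO XY, 0.89 to 1.24 in control XX and -1.37 to -0.79 in control XY. The 11 mitotic genes (*Ccna2*, *Ccnb2*, *Cdk1*, *Mki67*, *Top2a*, *Plk1*, *Aurka*, *Aurkb*, *Bub1*, *Bub1b* and *Cdc20*) gave -0.19 to 0.31 in dKO XY, -0.76 to 0.03 in control XX and 0.09 to 0.40 in control XY. Of the A- and B-type cyclins measured, this set left out *Ccna1* and *Ccnb3*. *Ccnb3* ran against most of the set, 2.07 ± 0.27 units higher in control XX than control XY. The 9 licensing genes gave -0.36 to 0.18 in dKO XY, -0.42 to 0.45 in control XX and -0.26 to 0.10 in control XY. The mean of the inhibitors therefore separated the 3 groups, whereas the licensing genes overlapped throughout. Each of the 3 inhibitors was already higher in control XX than control XY, so this mean restates the single-gene results. *Cdkn1a* alone did not separate dKO XY from control XX. Control XX replicate 2 was lowest and control XX replicate 4 highest of the control XX arrays for both the mitotic and the licensing genes, and dKO XY replicate 2 was the lowest dKO XY array for both.

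**Figure D3:**
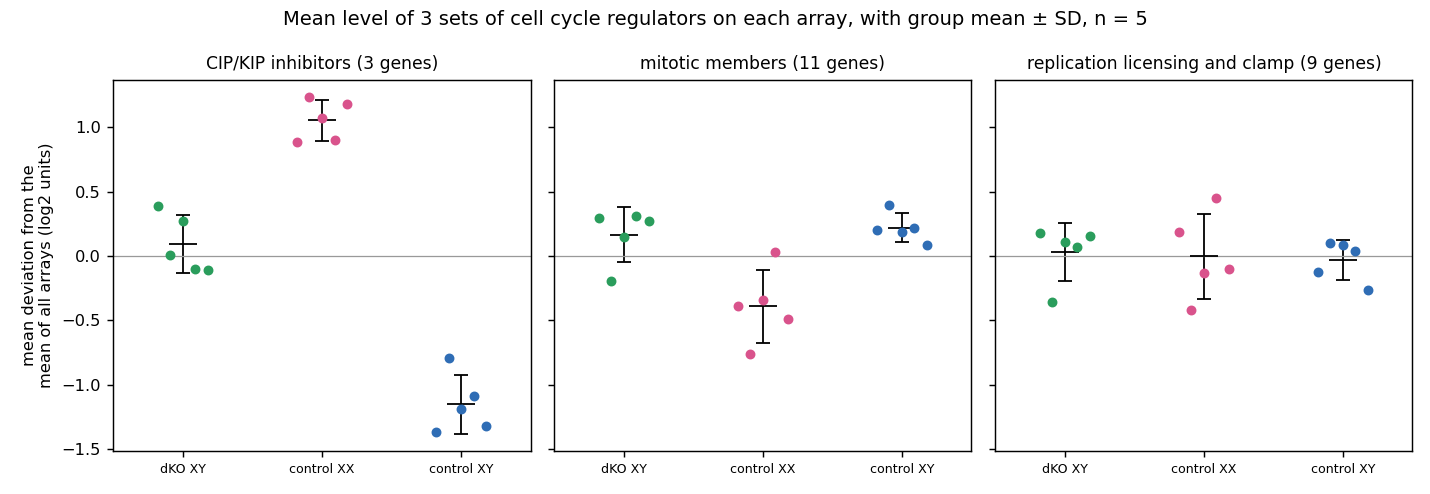
Mean deviation of 3 sets of cell cycle genes from their mean over all 15 arrays (vertical axis, log2 units), on each array of dKO XY (green), control XX (pink) and control XY (blue). Points are arrays and black bars are group means ± SD (n = 5). The mitotic set leaves out *Ccna1* and *Ccnb3*. The CIP/KIP points of the 3 groups do not meet, the mitotic points of 4 of 5 control XX arrays lie below every XY array, and the licensing points overlap.

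A further list of 117 cell cycle genes outside these 50 was counted, of which 111 were measured. In dKO XY minus control XY 1 was called higher and 1 lower, with a median of 0.04, and at the adjusted p alone 11 were higher (9.91%) and 7 lower (6.31%), beside 4.41% and 6.02% of all clusters. The share lower was therefore near that of all clusters. In a fit on the 23646 brighter clusters alone, 2890 were higher and 3206 lower. Both are larger shares than those of the 111 genes. *Hells*, a chromatin remodeller of the DNA methylation machinery, averaged 12.27 ± 0.36 in dKO XY, 12.76 ± 0.16 in control XX and 11.03 ± 0.44 in control XY, a dKO XY minus control XY difference of 1.23 ± 0.19 (adjusted p = 0.00067). *Cables1*, which links CDKs to other kinases, averaged 6.86 ± 0.15 in dKO XY, 6.43 ± 0.20 in control XX and 7.87 ± 0.19 in control XY. Its difference of -1.0 ± 0.11 (adjusted p = 2.7e-05) sat on the threshold, and its call was lost when any 1 of dKO XY replicates 2 and 3 or control XY replicates 1, 4 and 5 was left out.

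In control XX minus control XY 5 of the 111 genes were called higher (4.5%) and 7 lower (6.31%), beside 2.54% and 3.22% of all clusters. Among the brighter clusters the shares called were 5.7% and 6.7%, larger than those of the 111 genes. Of 31 replication and nucleotide supply genes, 14 were higher (45.2%) and 4 lower (12.9%) in control XX than control XY at the adjusted p, with a median difference of 0.30 units. The share of all clusters was 10.8% higher and 13.4% lower, so the replication genes exceeded it only on the higher side. The called ones were *Orc1* of the origin recognition complex (1.81 ± 0.14), *Hells* (1.73 ± 0.19), *Gins3* of the replicative helicase (1.45 ± 0.11) and *Tipin* of the fork protection complex (1.38 ± 0.15). Of 39 mitosis and cytokinesis genes, 2 were higher (5.13%) and 23 lower (59%), with a median of -0.53, so these exceeded it only on the lower side. They included the kinetochore motor gene *Cenpe* (-1.48 ± 0.11) and *Prc1*, which bundles the microtubules of the central spindle (-1.42 ± 0.14). Of 19 genes of CDK activation and turnover, 1 was called higher, *Cdk5* (1.26 ± 0.08), a kinase known for its work in neurons, and 2 were called lower, *Cables1* (-1.43 ± 0.11) and *Cdc25c* (-1.25 ± 0.14), the phosphatase gene that activates CDK1. *Cdk5* averaged 11.57 ± 0.12 in dKO XY, 12.10 ± 0.12 in control XX and 10.83 ± 0.10 in control XY, and was also higher in dKO XY than control XY, by 0.74 ± 0.08 units (adjusted p = 2.1e-05). Beside these medians, the median of all clusters was -0.013.

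For dKO XY minus control XY the replication genes had a median of 0.12, with 6 higher (19.4%) and 1 lower (3.23%) at the adjusted p, and the mitosis genes a median of -0.05, with 1 higher (2.56%) and 4 lower (10.3%), to be set beside the 4.41% and 6.02% of all clusters. Of the 23646 brighter clusters fitted alone, 2890 were higher and 3206 lower, the latter a larger share than that of the mitosis genes. *Orc1* was 0.89 units higher (adjusted p = 0.00056) and *Tipin* 0.87 units (adjusted p = 0.0014), and *Cenpe* was at -0.48 (adjusted p = 0.0083). In dKO XY minus control XX the mitosis genes had a median of 0.36, with 19 higher (48.7%, beside 7.55% of all clusters) and 0 lower (7.51% of all clusters) at the adjusted p (limma; 1 lower at an unadjusted p below 0.05, and 0 at the adjusted p of the unmoderated test). Of the 111 genes, 3 were called higher there (2.7%), beside 1.22% of all clusters and 3.09% of the brighter ones. *Ube2c*, a ubiquitin-conjugating enzyme of the anaphase-promoting complex, was 1.18 ± 0.25 units higher (adjusted p = 0.003), *Prc1* 1.12 ± 0.14 (adjusted p = 2.8e-05) and *Cenpe* 1.00 ± 0.11 (adjusted p = 5.9e-06). None of the 11 subunits of the anaphase-promoting complex passed in dKO XY minus control XY, also at an unadjusted p below 0.05, with differences from -0.08 to 0.14. At the 4.41% and 6.02% of all clusters, few or none of 11 genes would pass. These 11 genes all averaged above the negative control median, however, and the brighter clusters passed at the larger shares given by the counts above.

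**Figure D4:**
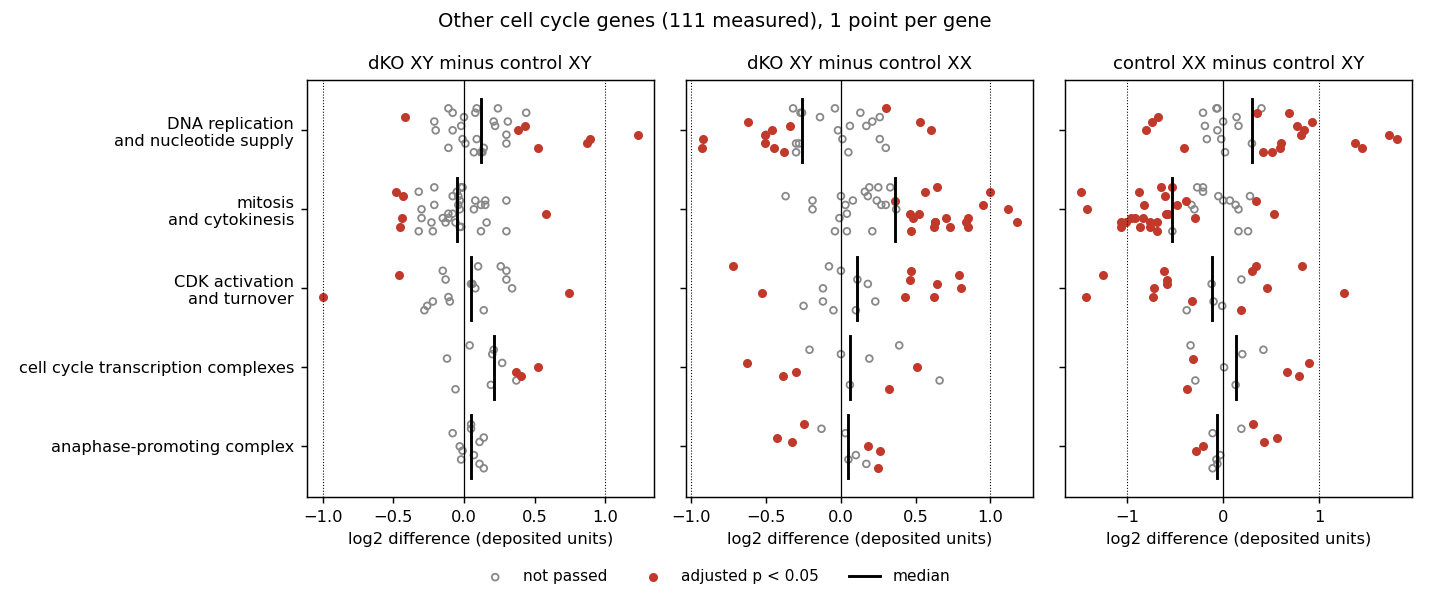
Log2 difference (horizontal axis, deposited units) of each of the 111 further cell cycle genes, in 5 lists from top to bottom, for dKO XY minus control XY (left), dKO XY minus control XX (middle) and control XX minus control XY (right). Filled red points passed the adjusted p, open grey points did not, and the black line is the list's median. In the right panel the median of the replication genes is at 0.30 and that of the mitosis genes at -0.53.

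Marker genes of other cell types stood beside these differences as follows, given as array means over each list. Of 7 fetal male germ cell genes 3 were called lower in dKO XY against control XY (6.26 to 7.39 in dKO XY, 5.77 to 6.16 in control XX, 7.24 to 8.66 in control XY). The array means of the 12 germ cell genes of both sexes overlapped (10.57 to 11.24 in dKO XY, 10.29 to 10.75 in control XX, 10.36 to 11.18 in control XY). Of these genes 2 were called higher in dKO XY than control XY. Between the controls 4 were called higher and 4 lower in control XX, so the list mean hides opposite changes. *Ddx4*, the germ cell helicase, averaged 14.43 in dKO XY, 14.08 in control XX and 14.21 in control XY. Of 11 Sertoli cell genes 3 were called lower in dKO XY against control XY, among them *Amh* (8.42 to 8.74 in dKO XY, 5.53 to 5.96 in control XX, 9.47 to 9.77 in control XY). Most of that gap came from *Amh*, the deleted gene, and over the other 10 genes the array means were 8.79 to 9.18 in dKO XY, 5.67 to 6.11 in control XX and 9.31 to 9.57 in control XY. At the adjusted p alone 5 Sertoli cell genes were lower and 2 higher in dKO XY than control XY, beside 6.02% and 4.41% of all clusters. The higher ones were *Cst9* (0.99 ± 0.29) and *Fgf9* (0.36 ± 0.10), so this list mean also hides opposite changes. Of 6 interstitial progenitor genes 4 were lower (10.24 to 10.95 in dKO XY, 10.18 to 10.92 in control XX, 11.84 to 12.06 in control XY), and of 7 surface epithelium genes 4 were higher (8.84 to 9.34 in dKO XY, 9.15 to 9.55 in control XX, 7.85 to 8.35 in control XY). The 6 fetal Leydig cell genes gave 0 calls between dKO XY and control XY (14.34 to 14.80 in dKO XY, 7.95 to 8.87 in control XX, 14.65 to 15.12 in control XY). The 5 erythroid genes gave 0 calls there as well (7.96 to 9.33 in dKO XY, 8.97 to 11.23 in control XX, 7.40 to 9.13 in control XY), whereas 3 of 5 were called higher in control XX against control XY. The 8 endothelial and 9 macrophage genes also gave 0 calls between dKO XY and control XY. Of 6 mesonephros genes, 5 averaged below the negative control median in dKO XY, 4 in control XX and 5 in control XY. *Emx2*, above it in all 3 groups and a gene that the early gonad also expresses, was called higher in dKO XY than control XY (1.12 ± 0.16; adjusted p = 0.00031) and averaged 8.48 in dKO XY, 9.90 in control XX and 7.36 in control XY. What part the listed cell types have in the cell cycle differences was not tested.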

How the data were processed

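Total RNA of whole E15.5 gonads was amplified, labelled with biotin and hybridized to 15 Affymetrix Clariom D arrays, 5 per group, which the methods call biological replicates. The deposited values are RMA-normalized log2 signals per transcript cluster, as the authors made them with the manufacturer's software; the genome build of the array annotation is not given in the sources used here. Groups came from the sample titles. The stage printed here is that of the labels, E15.5, which differs from the one in the paper's statement on data availability. The labels and the paper's methods give different amounts of RNA for amplification, so the amount is not stated here. Of 72688 entries, 6732 control probe sets were left out, which left 65956 clusters, 30638 of them with 1 gene symbol, 2176 with several and 33142 with none. No value was missing. Arrays hold no read depth, so precision rests on the 5 arrays of a group.

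All 15 arrays entered 1 limma fit (version 3.58.1, R 4.3.3) that gave each group its own mean, and its moderated test, two-sided, was applied to 3 contrasts. P-values were adjusted by Benjamini-Hochberg over every cluster, and a call needed less than 0.05 there plus at least 1 log2 unit of difference. Intervals are 95% intervals of the fit and are not adjusted for the number of genes. No test was run over a list, and lists are described by counts and medians. The fit was tested on simulated data. Array values are given for members called in any contrast or passing the adjusted p in dKO XY minus control XY, and group means otherwise, with the arrays of *Mki67* and *E2f4* added after their values were seen. Further pathway genes were named as the up to 6 called genes with the largest differences per contrast, with *Tipin*, *Cdc25c*, *Cdk5* and the dKO XY minus control XY values of *Orc1*, *Tipin* and *Cenpe* added after seeing them. The members, the pathway list and the marker lists were chosen with earlier results of these data known. Alternatives were a fit on 2 groups, an intensity trend, array weights, a replicate block, a second quantile normalization, centred medians, no dim clusters, the methods' unmoderated test, a threshold of 1.5 units, the mean of a gene's clusters, and each array left out.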

Additional observations from a re-analysis of the deposited data

Results flagged for a closer look

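In groups of 5 arrays, 1 array was far from the other 4 (Dixon's criterion at the 95% level) in 5 of the 57 groups formed by the 19 cell cycle genes given by array. Chance gives about 1 in 20. *Ccna2* was 12.1 units in dKO XY replicate 2, below the 12.43 to 12.51 of the other dKO XY arrays. *Ccnb3* was 6.27 in control XY replicate 2, below 7.22 to 7.48, and *E2f5* was 8.94 on the same array, above 8.38 to 8.53. *Ccne2* was 11.52 in control XX replicate 1, below 11.9 to 11.98, and *Rb1* was 10.61 in control XX replicate 2, below 11.09 to 11.24.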

How the results depend on the processing

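Under 10 other settings and with each array left out in turn, no difference of a gene given by array that had passed changed its direction. The median of all clusters, which is close to 0, did change sign: in dKO XY minus control XY it ran from -0.011 to 0.026, in dKO XY minus control XX from -0.009 to 0.034 and in control XX minus control XY from -0.06 to 0.031. With a threshold of 1.5 units, the cell cycle genes called in dKO XY minus control XY numbered 1 higher (*Cdkn1a*), in dKO XY minus control XX 0 higher and 2 lower (*Ccne2* and *Cdkn1b*), and in control XX minus control XY 5 higher (*Ccnb3*, *Ccne2*, *Cdkn1a*, *Cdkn1b* and *Cdkn1c*) and 0 lower. The further pathway genes then numbered 0 higher and 0 lower, 0 higher, and 2 higher (*Hells* and *Orc1*) and 0 lower, in the same order of comparisons. At the adjusted p alone, 2 of the 4 genes lower in dKO XY than control XY kept their place (*E2f6* and *E2f7*) after a second quantile normalization and after centring of the medians. The 1 further gene called lower there (*Cables1*) fell to 0 under both and with array weights. Array weights raised the genes called higher in dKO XY minus control XX to 4 (*Aurkb*, *Ccnb2*, *Cdc20* and *Plk1*). The causes were not tested.

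With 1 array left out, the counts in dKO XY minus control XY ran from 3 to 4 higher and 0 to 0 lower, at the adjusted p alone from 8 to 10 higher and 2 to 5 lower, and for pathway genes from 1 to 1 higher and 0 to 1 lower. The 2 lower genes came without control XY replicate 1, 3 or 4. In dKO XY minus control XX they ran from 0 to 5 higher and 4 to 5 lower, at the adjusted p from 9 to 12 higher and 6 to 8 lower, and for pathway genes from 1 to 4 higher and 0 to 0 lower, with 1 (*Prc1*) without control XX replicate 2. In control XX minus control XY they ran from 8 to 9 higher and 6 to 9 lower, at the adjusted p from 14 to 15 higher and 11 to 14 lower, and for pathway genes from 5 to 5 higher and 5 to 9 lower. With the replicate number as a block, 4 genes were called higher and 0 lower in dKO XY minus control XY, 1 and 4 in dKO XY minus control XX, and 8 and 7 in control XX minus control XY. The block moved no count by over 1.5 times, and *Ccnd3* (adjusted p = 0.095 in dKO XY minus control XY, 0.061 between the controls) and *E2f5* (0.066 in dKO XY minus control XX) lost their places at the adjusted p. Deviations of same-numbered arrays correlated between -0.19 and 0.19. These values gave no sign that the numbers pair the arrays, but they cannot exclude a shared litter or batch.

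Limits are the 5 arrays per group, the whole gonad as the unit, the deposited scale, which passes 16 and leaves fold sizes uncertain, and the signal of *Ccna1*, *Cdkn2b*, *Cdkn2c*, *Cdkn2d* and *E2f2* below the negative control median, where small differences cannot be read. A change in a few cells, or in protein, cannot be seen in these data.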
